A study of Mus musculus with 4 samples.

Results

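Arginine uptake and metabolism is described here through 10 genes, chosen by name for their roles: the carriers Slc7a1 and Slc7a2, the arginases Arg1 and Arg2, the inducible nitric oxide synthase Nos2, the resynthesis enzymes Ass1 and Asl, the polyamine enzymes Odc1 and Sat1, and the creatine enzyme Gatm. They are 10 of the 54115 genes with a transcript in the deposited libraries, and all 10 were among the 18758 genes with enough reads to be tested. They were chosen with earlier results of these data known. The libraries were made from MC38 tumours, which grow in mice from an injected colon adenocarcinoma cell line. Mice had received 10 consecutive intraperitoneal injections, 1 a day, of saline or of vanoxerine at 25 mg/kg, and each group had 2 libraries. Vanoxerine blocks dopamine reuptake, and the comparison asked how the tumour transcriptome responds to it. For the mice, no strain, sex, age or tumour site is given in the sources used here. Nothing in the labels says whether the 2 libraries of a group are 2 mice, so a p-value measures the spread of these libraries only, part of which may be technical.

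Arginine enters most cells through the cationic amino acid carriers of the Slc7 family. Inside the cell it is a shared substrate: arginases split it into ornithine and urea, nitric oxide synthases turn it into nitric oxide and citrulline, and the transamidinase Gatm starts creatine synthesis from it. Ornithine from arginase feeds Odc1 and the polyamines, while citrulline from nitric oxide synthase can be rebuilt into arginine by Ass1 and Asl. In tumours, Arg1 and Nos2 are best known from macrophages and other myeloid cells, where Arg1 is induced by interleukin-4 and interleukin-13 and Nos2 by interferon-γ and bacterial products.

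The 4 libraries held 67289273 to 75748162 estimated reads. Levels are given as CPM, estimated reads scaled to the library total and by TMM factors, and for comparisons between genes as TPM, which is also scaled to transcript length. In edgeR's quasi-likelihood test, 36.9% of all genes tested differed between the groups at an adjusted p under 0.05, with 21.0% higher and 15.9% lower in vanoxerine. Higher genes made up 56.9% of these calls, against 39.0% with upper-quartile factors and 82.5% or 83.0% on log2(TPM + pseudocount). The tumour label was checked against markers. Epithelial markers were low, with Epcam at 1.75 and 2.29 CPM in saline and 4.22 and 4.01 CPM in vanoxerine, whereas 14 macrophage and monocyte markers summed to 1778 and 1814 CPM in saline and to 5762 and 5780 CPM in vanoxerine. Of these 14 markers, 13 were called higher and 1 lower. Some other cell types moved the other way. All 7 erythroid markers were called lower, with saline sums of 13969 and 15082 CPM against 6248 and 5903 CPM after vanoxerine. Also called lower were 6 of 10 neutrophil markers, with 0 higher, and 7 of 9 fibroblast markers, with 1 higher. Epithelial markers did not fall as a list, with 3 of 7 called higher and 1 lower. T cell markers were mixed, with 2 of 8 called higher and 3 lower. Endothelial markers had 5 of 8 called lower and 1 higher, and their sum was flat. In bulk tumour RNA, more cells of a type and more RNA per cell cannot be told apart, and the part of these markers in the results on the arginine genes was not tested.

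Among the 10 arginine genes, 7 were called higher in vanoxerine, against 21.0% of all genes tested, and 0 were called lower by edgeR. The genes called higher were Slc7a2, Arg1, Gatm, Nos2, Ass1, Odc1 and Arg2, in falling order of log2 fold change. At an unadjusted p under 0.05, edgeR had 1 gene lower, Slc7a1, and DESeq2 and limma-voom each called that 1 gene lower. Groups did not overlap for 9 of the 10 genes, which was also true of 70.7% of all genes tested. For 7 of the 10 both vanoxerine libraries were the higher ones, against 35.8% of all genes. The median log2 fold change over the 10 was 0.58, and over all genes tested it was -0.01. Because the 10 genes were chosen with earlier results of these data known, these counts and medians describe them and test no enrichment. With only genes averaging 1 CPM or more, 3600 of 13884 were called higher, and no comparison at matched expression was made.

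**Figure D1:**
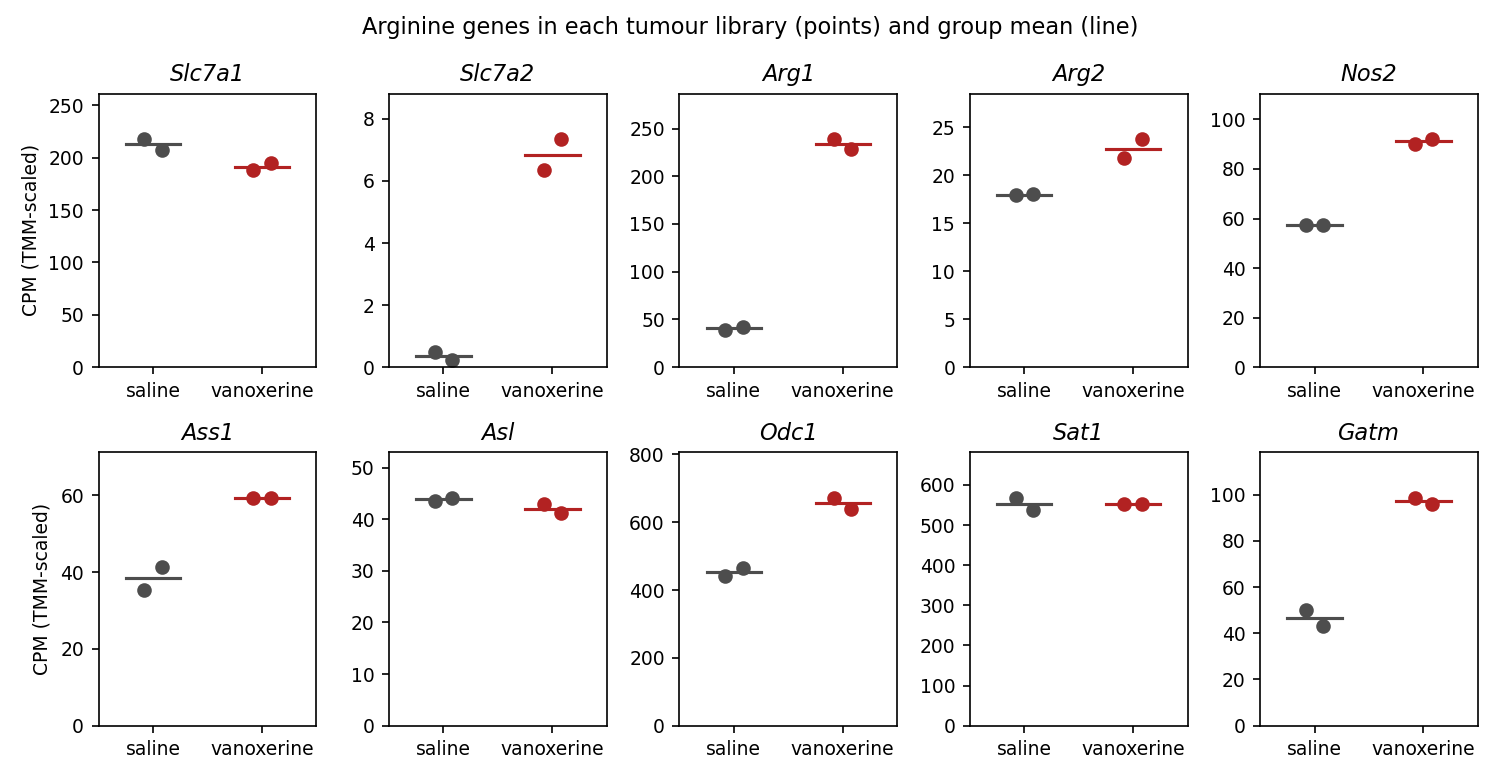
Level of each arginine gene in every library, in CPM scaled by TMM factors on axes that start at 0. Points are the 2 libraries of each group and lines are group means. The vanoxerine points lie above both saline points for 7 genes, below them for Slc7a1 and Asl, and between them for Sat1.

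Slc7a2 encodes the carrier CAT-2. Its transcripts use either of a pair of mutually exclusive exons, which is how one gene makes a low-affinity carrier, known from liver, and a high-affinity carrier, known from activated macrophages. Both exons were read from the GENCODE M21 transcripts on GRCm38 and are shown because the reads of the gene divide between their transcripts. They are exon 7 of their transcripts, lie on the plus strand of chromosome 8 within the coding part of the gene, and are 202 bases apart. Aligned to each other, 84 of 140 columns are identical (60.0%), with 3 gap columns, and capitals mark the bases that are unlike the other exon.
Slc7a2 upstream exon, chr8:40908056-40908195 (transcripts Slc7a2-202 and Slc7a2-203): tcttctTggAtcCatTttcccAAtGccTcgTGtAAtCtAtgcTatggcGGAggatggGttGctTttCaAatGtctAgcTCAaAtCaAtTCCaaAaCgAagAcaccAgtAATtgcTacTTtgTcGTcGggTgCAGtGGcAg
Slc7a2 downstream exon, chr8:40908398-40908534 (transcripts Slc7a2-201 and Slc7a2-204): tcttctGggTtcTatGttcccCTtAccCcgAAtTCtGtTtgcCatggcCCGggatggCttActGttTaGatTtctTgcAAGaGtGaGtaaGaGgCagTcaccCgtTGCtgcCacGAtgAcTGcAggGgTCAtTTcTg
The exons are 140 and 137 bases long and share their first 6 bases. Which of them belongs to the low-affinity and which to the high-affinity carrier was not assigned here.

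Uptake was where the largest difference was found. Slc7a2 (ENSMUSG00000031596.15, chr8:40862396-40922308, plus strand) was almost absent from saline tumours, with 38 and 17 estimated reads, and had 439 and 484 reads in vanoxerine tumours. These are 0.497 and 0.239 CPM in saline against 6.34 and 7.35 CPM in vanoxerine. Both vanoxerine libraries were far above both saline libraries, and the first saline library had more reads than the second. Its log2 fold change was 4.20 ± 0.37 (SE, n = 2 libraries per group), or 18.4-fold, with an edgeR adjusted p of 4.92e-04. In the order of log2 fold changes over all 18758 genes tested it came at position 91 from the top. It was 4.83 with saline library 1 left out and 3.79 with saline library 2 left out, and both kept the call. Slc7a2 stayed scarce in both groups, at 0.0684 ± 0.0586 TPM (SD, n = 2) in saline and 1.17 ± 0.0363 TPM in vanoxerine.

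The reads of Slc7a2 were then divided by the exon of the transcript to which Salmon assigned them, most of which fall outside the exon itself. In saline library 1, all 38 reads went to upstream-exon transcripts, and 0 downstream reads allow a share of up to 7.89%. In saline library 2, all 17 reads did so, and 0 reads allow up to 17.6%. In vanoxerine library 1, 404 of 439 reads were on upstream-exon transcripts and 35 on downstream-exon transcripts, a downstream share of 7.97% with a 95% Wilson interval of 5.79% to 10.9%. In vanoxerine library 2 it was 397 against 87 of 484 reads, a share of 18.0% with an interval of 14.8% to 21.6%. Transcripts with the upstream exon therefore held most reads in every library. The intervals of the downstream share in the vanoxerine libraries did not overlap, but they leave out error in assigning reads between transcripts. Both vanoxerine shares were above the 0 of the saline libraries, with a two-sided exact permutation p of 0.333, the smallest possible, and the interval of vanoxerine library 1 reaches below the limits of both saline libraries. Intervals and limits cover counting error only.

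**Figure D2:**
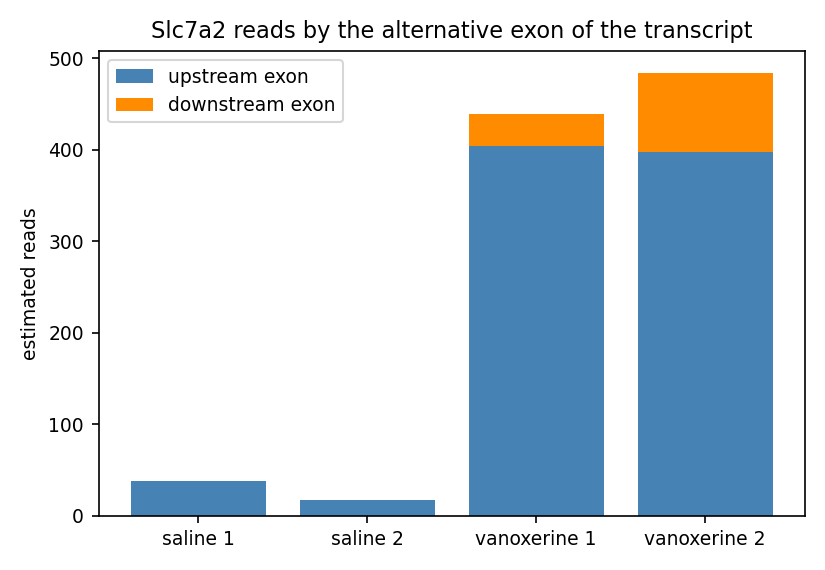
Estimated reads of Slc7a2 in each library, stacked by the alternative exon of the transcript they were assigned to, on an axis from 0. Saline libraries hold 38 and 17 reads, all on upstream-exon transcripts, and vanoxerine libraries hold 439 and 484 reads, of which 35 and 87 are on downstream-exon transcripts.

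Slc7a1 (ENSMUSG00000041313.14, chr5:148327410-148399904, minus strand) encodes CAT-1, the carrier found in most proliferating cells. It stood at 217.7 and 207 CPM in saline and at 188 and 195 CPM in vanoxerine. Both vanoxerine libraries lay below both saline libraries, by a margin close to the gap within a group. With a log2 fold change of -0.15 ± 0.048 (SE) and an edgeR adjusted p of 0.0537, it missed the threshold. The call rests on the setting: Slc7a1 was called lower in 11 of 18 alternatives, with an adjusted p of 0.00848 without saline library 1 and 1.98e-04 without saline library 2, while the log2 difference was 0.08 on the TPM scale. Slc7a1 had 25.2 and 23.5 TPM in saline and 25.3 and 26.1 TPM in vanoxerine, and 1 transcript, Slc7a1-201, held 99.6% to 99.8% of its reads.

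Set against each other on the TPM scale, the carriers kept their order in every library. Slc7a1 exceeded Slc7a2 230-fold and 869-fold in saline and 22.0-fold and 21.8-fold in vanoxerine. The log2 ratio of Slc7a2 to Slc7a1 went from -8.80 ± 1.36 (SD, n = 2) to -4.45 ± 0.012, a difference of 4.35. An exact permutation test over libraries, two-sided, gave p = 0.333, the smallest that 3 splits of 4 libraries can give. The vanoxerine libraries were alike in this ratio, and the saline libraries, of which 1 held only 17 reads of Slc7a2, were not.

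Hydrolysis was carried by both arginase genes, at unequal size. Arg1 (ENSMUSG00000019987.9, chr10:24915221-24927484, minus strand), the cytosolic arginase of liver and of macrophages, stood at 38.9 and 42.3 CPM in saline and at 238.9 and 228.9 CPM in vanoxerine. Both vanoxerine libraries were well above both saline libraries, and the libraries within each group were close. This was a log2 fold change of 2.53 ± 0.062 (SE), or 5.76-fold, with an edgeR adjusted p of 8.7e-06, at position 291 from the top of 18758 genes. It rose on its full-length transcript: Arg1-201, of 8 exons, held 98.2% to 99.9% of the reads of the gene.

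Arg2 (ENSMUSG00000021125.6, chr12:79130777-79156301, plus strand), the mitochondrial arginase, stood at 17.9 and 18.0 CPM in saline and at 21.8 and 23.8 CPM in vanoxerine. The vanoxerine libraries were both higher, and they differed from each other more than the saline libraries did. Its log2 fold change was 0.34 ± 0.085 (SE), or 1.27-fold, with an edgeR adjusted p of 0.0245. The call was lost with either vanoxerine library left out (adjusted p of 0.109 without library 1 and 0.257 without library 2), with upper-quartile factors, with a transcript length offset and with reads on protein-coding transcripts only. On the TPM scale Arg1 exceeded Arg2 2.11-fold and 2.43-fold in saline and 10.6-fold and 9.35-fold in vanoxerine.

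Nos2 (ENSMUSG00000020826.8, chr11:78920787-78960254, plus strand), which makes nitric oxide in activated myeloid cells, stood at 57.4 and 57.5 CPM in saline and at 90.2 and 92.1 CPM in vanoxerine. The groups were far apart beside the gap within either. Nos2 thus had a log2 fold change of 0.66 ± 0.047 (SE), or 1.59-fold, with an edgeR adjusted p of 2.26e-04. All of its reads were assigned to Nos2-201, of 27 exons, in each of the 4 libraries.

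Arg1 and Nos2 both rose, and Arg1 rose more. The ratio of Arg1 to Nos2 on the TPM scale was 2.29 and 2.69 in the saline libraries but 8.96 and 8.48 after vanoxerine. Both vanoxerine libraries were above both saline libraries. On the log2 scale the ratio went from 1.31 ± 0.17 (SD, n = 2) to 3.12 ± 0.056, a difference of 1.81, with a two-sided exact permutation p of 0.333, again the smallest possible. Arg1 exceeded Nos2 per transcript length in every library. In CPM, which favours the longer Nos2 transcript, the saline ratio was below 1, at a log2 mean of -0.50, and the vanoxerine ratio was above it, at 1.36.

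**Figure D3:**
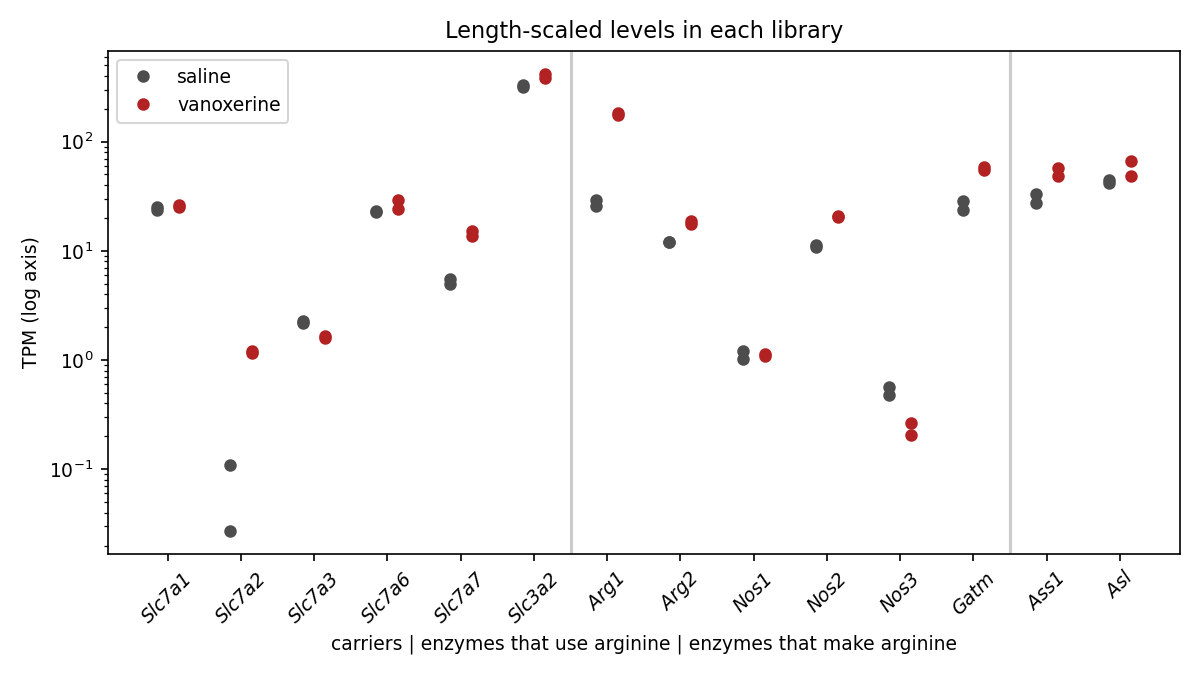
Levels in TPM on a log axis for arginine carriers, enzymes that use arginine and enzymes that make it, with 1 point per library. Arg1 moves from 25.6 and 29.1 TPM in saline to 184.5 and 176.9 TPM in vanoxerine, and Slc7a2 lies below all other genes plotted in saline.

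Resynthesis of arginine from citrulline takes 2 enzymes, and they differed. Ass1 (ENSMUSG00000076441.9, chr2:31470207-31520672, plus strand), the argininosuccinate synthase that sets the pace of the pair, stood at 35.5 and 41.2 CPM in saline and at 59.4 and 59.3 CPM in vanoxerine. The vanoxerine libraries were nearly equal and above both saline libraries. The test gave Ass1 a log2 fold change of 0.63 ± 0.082 (SE), or 1.55-fold, with an edgeR adjusted p of 0.00226, and 0.0586 with a transcript length offset. Its full-length transcript Ass1-201 had 17.1 and 18.7 TPM in saline and 34.8 and 32.7 TPM in vanoxerine, so the difference was visible on that transcript. A retained-intron fragment of 485 bases, Ass1-204, had 10.5 and 12.2 TPM in saline and 11.9 and 22.8 TPM in vanoxerine, with the vanoxerine libraries apart from each other.

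Asl (ENSMUSG00000025533.15, chr5:130011258-130029247, minus strand), the argininosuccinate lyase that completes the step, stood at 43.6 and 44.2 CPM in saline and at 42.9 and 41.3 CPM in vanoxerine. The groups were separated by less than the gap within vanoxerine. Its log2 fold change was -0.06 ± 0.058 (SE), with an edgeR adjusted p of 0.462. On the TPM scale its sign turned, with 44.1 and 41.8 TPM in saline and 67.0 and 48.1 TPM in vanoxerine. Of the 67.0 TPM in vanoxerine library 1, 19.7 TPM came from Asl-207, a fragment of 289 bases with 61.8 estimated reads there and 0 in the other libraries. No single transcript of Asl dominated: the leading one by TPM, Asl-201, held 60.0 ± 6.40% of the TPM of the gene in saline and 45.6 ± 11.4% in vanoxerine. Asl-201 is a short form of 864 bases and 9 exons. The longer Asl-205 (1824 bases, 17 exons) and Asl-202 (2088 bases, 18 exons) each held 2.82% to 10.0% of the TPM in single libraries.

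Of the 2 polyamine enzymes among the 10, Odc1 was called higher and Sat1 was not called. Odc1 (ENSMUSG00000011179.8, chr12:17544794-17551505, plus strand), the ornithine decarboxylase, stood at 440 and 466 CPM in saline and at 672 and 638 CPM in vanoxerine. The vanoxerine libraries were both higher, by several times the gap within a group. For Odc1 the log2 fold change was 0.53 ± 0.049 (SE), or 1.45-fold, with an edgeR adjusted p of 6.04e-04. Its coding transcript Odc1-201 had 144.0 and 144.6 TPM in saline and 266.5 and 247.7 TPM in vanoxerine. Reads on its transcripts that do not code for protein were 20.7% and 21.7% of the gene in saline and 17.7% and 18.3% in vanoxerine.

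Sat1 (ENSMUSG00000025283.15, chrX:155213132-155216449, minus strand), the acetyltransferase that starts polyamine breakdown, stood at 568 and 538 CPM in saline and at 552.3 and 552.7 CPM in vanoxerine. The vanoxerine libraries lay between the saline libraries. Sat1 had a log2 fold change of -0.0022 ± 0.043 (SE), with an edgeR adjusted p of 0.975. On log2(TPM + 1), limma-trend called it higher, at 0.23 with an adjusted p of 0.043. Much of the gene's reads came from transcripts without a full reading frame: 44.6% and 47.0% in saline and 41.7% in both vanoxerine libraries. The coding transcript Sat1-201 had 276 and 248 TPM in saline and 335 and 334 TPM in vanoxerine. Sat1-207, which carries an additional exon and is annotated as a target of nonsense-mediated decay, held 1.18% and 2.84% of the TPM of the gene in saline and 3.20% and 3.28% in vanoxerine. Saline library 1 was the low one in that share, and the groups did not overlap.

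Gatm (ENSMUSG00000027199.14, chr2:122594467-122611303, minus strand), which moves the amidino group of arginine to glycine in creatine synthesis, stood at 50.1 and 43.1 CPM in saline and at 98.7 and 95.8 CPM in vanoxerine. Both vanoxerine libraries were above both saline libraries. Gatm had a log2 fold change of 1.06 ± 0.080 (SE), or 2.09-fold, with an edgeR adjusted p of 2.7e-04. Its coding transcript Gatm-201 held 69.4 ± 2.24% of the TPM of the gene (SD, n = 2) in saline and 81.6 ± 3.06% in vanoxerine. Gatm-203, a fragment of 510 bases, stayed between 5.37 and 8.11 TPM in all 4 libraries.

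The order of the genes by TPM was largely shared between the groups. In saline it ran from Sat1 (576 ± 23.4 TPM, SD, n = 2) and Odc1 (246 ± 15.2) through Asl (43.0 ± 1.65), Ass1 (30.5 ± 4.05), Arg1 (27.4 ± 2.46), Gatm (26.1 ± 3.41) and Slc7a1 (24.3 ± 1.24) to Arg2 (12.1 ± 0.0884), Nos2 (11.0 ± 0.274) and Slc7a2. From Ass1 down to Slc7a1, the libraries of each gene overlapped with those of the next. In vanoxerine, Sat1 (674 ± 1.84 TPM) and Odc1 (421 ± 8.56) again led, and Arg1 came next at 181 ± 5.37 TPM. Asl (57.5 ± 13.4), Gatm (56.9 ± 2.80) and Ass1 (52.7 ± 6.38) followed with overlapping libraries, and below them came Slc7a1 (25.7 ± 0.583), Nos2 (20.7 ± 0.190), Arg2 (18.2 ± 1.05) and Slc7a2. The place of Arg1 thus changed from the fifth in saline to the third in vanoxerine, and Arg2 and Nos2 exchanged places.

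The authors' deposited table of the comparison was set beside these values. Its per-library columns carry numbers that match none of the 4 libraries, so whether it rests on them is not stated in the sources used here. Its base means, signals averaged over libraries, fall among the reads counted here. They are 1439 for Arg2, beside 1285 to 1566 reads, and 5251 for Nos2, beside 4096 to 6243. The deposited values are therefore not read as a separate check. In the authors' deposited table, the same 7 genes had a positive log2 fold change with an adjusted p under 0.05. For Arg1 the authors' deposited table gives 2.48 ± 0.11 (SE) with an adjusted p of 1.32e-113, and for Slc7a2 3.72 ± 0.64 with 3.43e-09. The authors' deposited table gives 0.87 for Gatm, 0.67 for Nos2, 0.53 for Odc1, 0.51 for Ass1 and 0.33 for Arg2, the last with an adjusted p of 0.0403. Slc7a1 is at -0.15 with an adjusted p of 0.126 in the authors' deposited table, and Asl at 0.16 with 0.465, so the sign of Asl differs from the edgeR fit.

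Promoters from RefSeq (GRCm38.p6), 250 bases before to 50 bases after the start, matched 5 of the 10 genes: Ass1, Gatm, Odc1, Sat1 and Slc7a1. Arg1, Arg2, Nos2, Slc7a2 and Asl had no entry. Motifs were searched on both strands, and shares are over 32851 promoters of 300 bases. CACGTG, the E-box bound by Myc and related factors, occurs in 7.15% of all promoters and in that of Ass1. ACGTG, the core of the hypoxia response element, which every CACGTG also holds, occurs in 19.6% and in those of Ass1 and Gatm. TTCNNNNGAA, the form preferred by Stat6, occurs in 6.95% and in none of these 5 genes. The stretches around the Ass1 and Gatm matches are shown because both genes were called higher, with the motif in capitals, and a match is a description of the letters only.
Ass1, chr2:31470222-31470251, plus strand, CACGTG: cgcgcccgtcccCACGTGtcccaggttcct
Gatm, chr2:122611355-122611383, minus strand, ACGTG: gccagccccgggACGTGacccacggacgc
The Ass1 stretch lies inside the GENCODE gene, which begins at 31470207, and its motif starts 36 bases before the RefSeq start. The Gatm stretch lies upstream of its GENCODE gene.

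Other genes were taken from 7 lists of arginine handling and 3 lists of inducers and macrophage activation genes. In the 7 lists, 69 genes that are not among the 10 were tested, and 16 were called higher, 21 lower and 32 not called, with a median log2 fold change of -0.06. The share called was 53.6%, against 36.9% of all genes tested. That background depends on the genes tested. With only genes averaging 1 CPM or more, 7020 of 13884 were called, and with only protein-coding genes 6982 of 14855. The shares were not compared at matched expression. The lists were also chosen with earlier results of these data known, so their counts test no enrichment. In the other 3 lists, 34 genes were tested, and 22 were called higher, 6 lower and 6 not called. The gene said to lead a list in a direction had the smallest p there, and some others are named beside it.

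Beside Slc7a1 and Slc7a2, 10 further carriers were tested, of which 1 was called higher and 1 lower. Slc7a7, the light chain of the exchanger that exports arginine and is prominent in macrophages, went from 12.5 ± 0.942 CPM (SD, n = 2) to 26.4 ± 1.78 CPM, a log2 fold change of 1.08 with an edgeR adjusted p of 5.99e-04. Slc7a3, which encodes CAT-3, fell by 0.80 on the log2 scale (adjusted p = 0.0106). The heavy chain Slc3a2, the partner of Slc7a7, went from 525 to 539 CPM and was not called. Slc6a14 had 0 reads in every library. The whole list, Slc7a1 and Slc7a2 included, summed to 895 and 879 CPM in saline and to 885 and 896 CPM in vanoxerine.

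Around Arg1, Arg2, Ass1 and Asl, the urea cycle of liver was nearly silent. Otc, the ornithine transcarbamylase, had 0 reads in every library, and Cps1, the carbamoyl phosphate synthase, fell from 1.11 ± 0.0451 to 0.429 ± 0.00586 CPM (edgeR adjusted p = 0.0443). Of the hepatocyte markers, Alb and Serpina1a had 0 reads in all 4 libraries, and the 7 markers summed to at most 2.74 CPM. Of 5 kidney tubule markers, Umod, Kap and Slc22a6 had 0 reads, and the sum was at most 0.66 CPM, beside a Gatm of 43.1 to 98.7 CPM. The part of liver or kidney tissue in the reads of the arginine genes was not tested.

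Around Nos2, 12 other genes of nitric oxide synthesis and control were tested, with 3 called higher, 2 lower and 7 not called. Gch1, which makes the cofactor tetrahydrobiopterin, went from 23.8 ± 3.33 to 39.1 ± 1.35 CPM (log2 0.71, edgeR adjusted p = 0.0038). The endothelial synthase Nos3 went from 2.73 ± 0.403 to 1.05 ± 0.194 CPM (log2 -1.38, adjusted p = 0.0144), beside endothelial markers of which 5 of 8 were called lower. All 8 markers summed to 148.4 and 145.9 CPM in saline and to 143.8 and 145.9 CPM after vanoxerine, so their sum was flat. The 1 called higher was Pecam1, and the other 7 summed to 95.6 and 91.6 CPM in saline but 45.8 and 47.6 CPM after vanoxerine. The part of these markers in the fall of Nos3 was not tested. The neuronal synthase Nos1 was not called. On the TPM scale Nos2 was the highest of the 3 synthases in each library.

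Around Odc1 and Sat1, 18 polyamine genes were tested, with 6 called higher, 2 lower and 10 not called. The polyamine transporter Atp13a2 went from 37.5 ± 0.817 to 114 ± 0.511 CPM (log2 1.60, edgeR adjusted p = 1.59e-05), and the antizyme inhibitor Azin1, which protects Odc1 protein from degradation, from 131 ± 15.1 to 226 ± 0.0969 CPM (log2 0.78). Srm, the spermidine synthase downstream of Odc1, fell by 0.43 on the log2 scale (adjusted p = 0.00169), a call that was lost on log2 TPM (adjusted p up to 0.0968). The oxidases Smox and Paox, which break polyamines down, rose by 0.45 (adjusted p = 0.00115) and 0.84 (adjusted p = 0.00268). The antizymes Oaz1 and Oaz2 were not called.

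Around Gatm, 5 creatine genes were tested, with 2 called higher, 1 lower and 2 not called. Gamt, the second enzyme of creatine synthesis, fell by 0.61 on the log2 scale to 5.78 ± 0.467 CPM (edgeR adjusted p = 0.0368). The brain-type creatine kinase Ckb went from 16.7 and 16.2 CPM in saline to 137 and 139 CPM in vanoxerine (log2 3.07, adjusted p = 5.13e-06). Of 9 genes of ornithine and proline conversion, 1 was called higher, Oat (log2 0.30), and 6 lower, led by the prolyl hydroxylase P4ha2 (log2 -0.82). Of 13 genes of arginine methylation, charging and sensing, 3 were called higher, led by Castor2 (log2 1.66), and 8 lower, led by Prmt7 (log2 -0.34).

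Several of these smaller calls were lost with 1 vanoxerine library left out, where the calls over all genes also went from 6916 to 3235 or 3107. With 1 vanoxerine library left out, the adjusted p was 0.0982 or 0.0915 for Slc7a3, 0.233 or 0.245 for Cps1, 0.119 or 0.0615 for Nos3, 0.122 or 0.22 for Gamt, 0.0876 or 0.109 for Oat and 0.0672 or 0.0918 for Prmt7, for library 1 and library 2 in turn. The folds of most stayed close, at -0.77 or -0.80 for Slc7a3, -1.36 or -1.34 for Cps1 and 0.32 or 0.30 for Oat. For Gamt the adjusted p was 0.0659 without saline library 2. On the TPM scale Prmt7 had a positive log2 difference, of 0.28.

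Of the genes known to induce Arg1 or Nos2, 16 were tested, with 11 called higher, 2 lower and 3 not called. The interleukin-4 receptor chain Il4ra went from 86.1 ± 0.397 to 247 ± 0.344 CPM (log2 1.52, edgeR adjusted p = 1.32e-05), and the ligands Il4 and Il13 were at or below 0.334 CPM in every library. Il4 had 0 and 5 reads in saline and 13 and 22 in vanoxerine, and Il13 0 and 4 against 11 and 18. For both ligands the vanoxerine libraries were the higher ones, as for 35.8% of all genes tested. Neither ligand was called (edgeR adjusted p of 0.168 and 0.166), and their part in the results on Arg1 was not tested. Ifng, which induces Nos2, fell from 30.1 ± 1.74 to 12.1 ± 0.689 CPM (log2 -1.31, adjusted p = 2.03e-04). Of 8 genes of alternative macrophage activation, 5 were called higher, led by Mrc1 (log2 3.55), and 2 lower, led by Fn1 (log2 -0.62). Mrc1 is also among the 14 macrophage markers. The other gene called lower was Chil3 (log2 -0.22), a call lost on log2 TPM (limma-trend adjusted p up to 0.646). Of 10 inflammatory activation genes, 6 were called higher, led by Cxcl9 (log2 0.91), and 2 lower, led by Cxcl10 (log2 -0.51, a call lost on log2 TPM with an adjusted p of up to 0.0655). Il12b, also called higher, had a larger log2 fold change of 3.16, from 0.380 and 0.281 CPM in saline to 3.32 and 2.60 CPM in vanoxerine. These lists sit beside the rise of the macrophage marker sum given above, and the part of that rise in them was not tested.

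**Figure D4:**
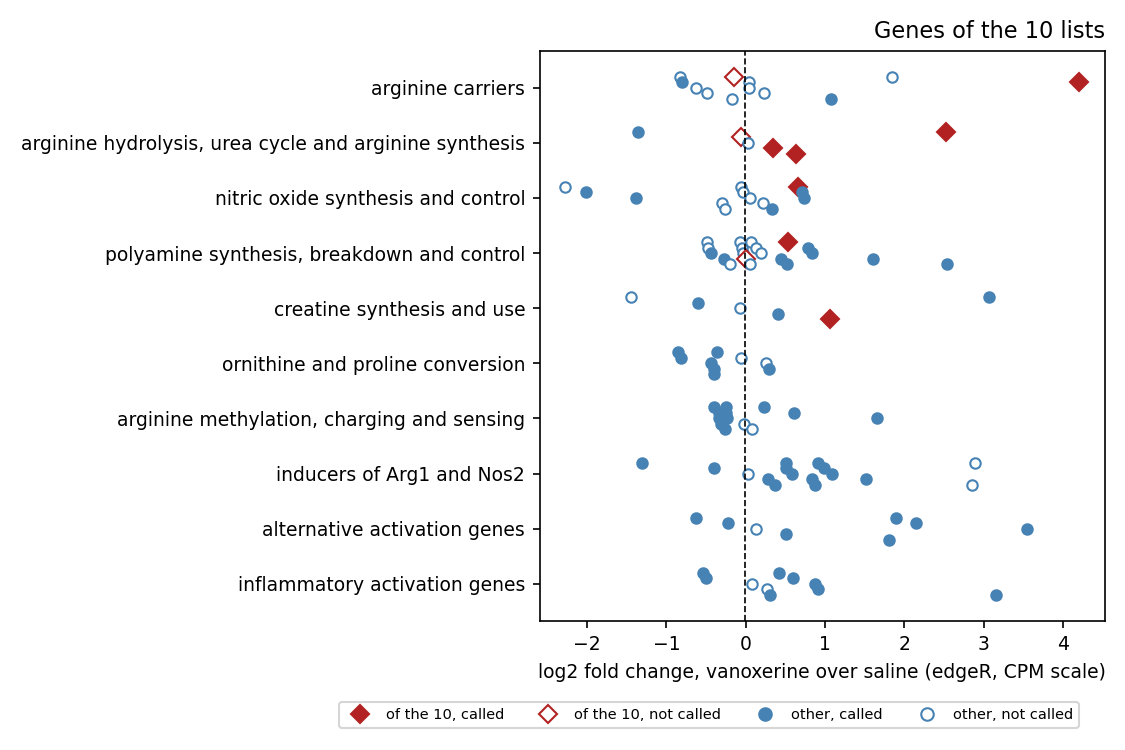
Log2 fold change, vanoxerine over saline, of every tested gene in the 7 lists of arginine handling and the 3 lists of inducers and activation genes, with the 10 arginine genes as red diamonds and other genes as blue circles, filled where called by edgeR. The dashed line is the median over all genes tested, -0.01. Slc7a2 and Arg1 lie at 4.20 and 2.53, to the right of every other gene of their lists.

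How far the values move with the processing differed by gene. Slc7a2, Arg1, Nos2, Odc1 and Gatm kept their direction and their call in all 18 alternatives. Arg1 ranged from 2.39 to 2.72 on the log2 scale, Nos2 from 0.53 to 0.91, Odc1 from 0.40 to 0.78 and Gatm from 0.88 to 1.17. Slc7a2 ranged from 1.03, on log2(TPM + 1), where the pseudocount is about as large as the vanoxerine level itself, to 4.83. The TPM scale moved the median of all genes by 0.14 with a pseudocount of 1 and by 0.22 with a pseudocount of 0.1. All of the arginine genes except Slc7a2 had higher values there than in the edgeR fit, by up to 0.46 for Asl.

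**Figure D5:**
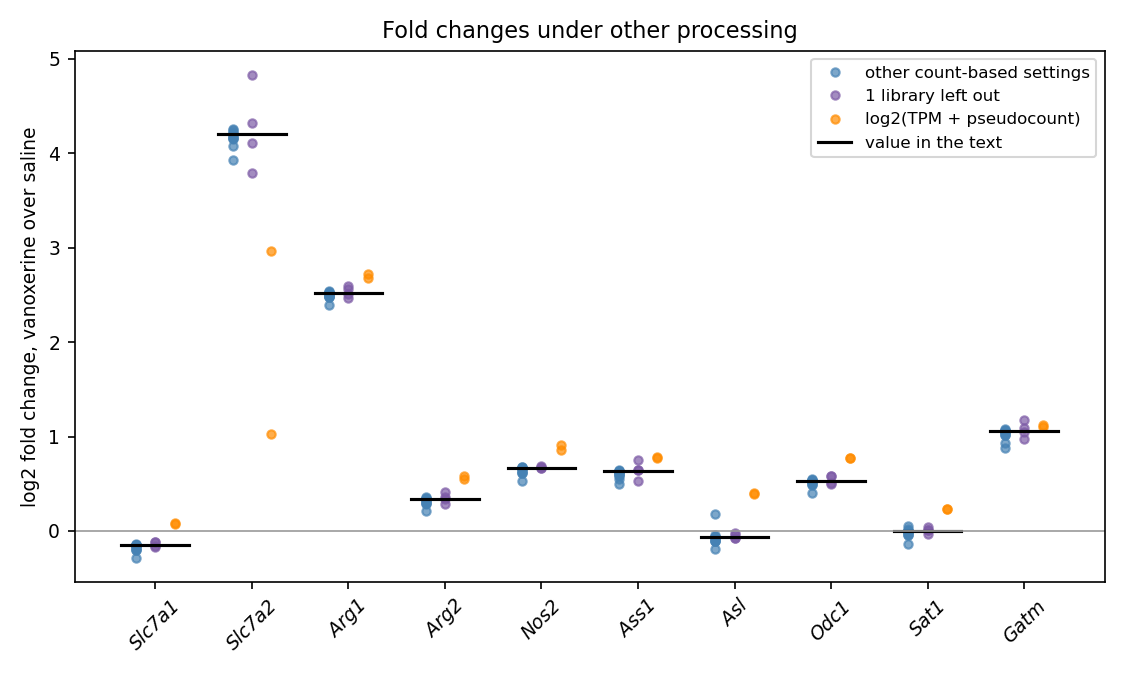
Log2 fold change of each arginine gene under other processing, with count-based settings in blue, settings that leave out 1 library in purple and log2(TPM + pseudocount) in orange. Black lines are the edgeR values given in the text. Slc7a2 spans 1.03 to 4.83, and Slc7a1, Asl and Sat1 lie on both sides of 0.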

How the data were processed

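RNA-seq libraries of 4 MC38 tumour samples were analysed. Per the labels' protocols, they were made from total RNA of snap-frozen tumours with a TruSeq RNA v2 kit, which keeps no strand, so overlapping and antisense genes cannot be told apart. Per the submitters' processing notes, fastp, Salmon 1.3.0, DESeq2 and GRCm38 were used. For each of 140992 transcripts the authors deposited Salmon's estimated count, which is not normalized, and TPM, scaled to transcript length and library total per the file headers. A comparison table that the authors deposited gives for each gene a base mean (a normalized signal averaged over libraries), the log2 fold change and its error, and the p-value before and after adjustment. Its 4 per-library columns match no sample and were not used.

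Counts and TPM were summed per gene of GENCODE M21, which held 139791 of the transcripts and 99.56% to 99.63% of the reads. Summed counts were rounded and tested in edgeR 4.0.16 (R 4.3.3) with TMM factors, the filterByExpr minimums of 10 reads and 15 in total, and the quasi-likelihood test of group with no block. The p-values of all 18758 genes tested were adjusted together after Benjamini and Hochberg, and a gene was called under 0.05. SDs are over the 2 libraries of a group. The scripts were tested on simulated data. One promoter motif that was searched is not reported here.

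The 10 genes and all lists were chosen with earlier results of these data known. By rule, up to 3 further genes per direction of each pathway list could be named, in order of p among those called, and genes at 0 reads. The text gives the first, and 2 for polyamine genes called higher and for alternative activation genes called lower. Smox is the third by p among the polyamine genes called higher, and Il12b is the third among the inflammatory genes called higher. Slc3a2, Nos1, Oaz1, Oaz2, Paox, Il4 and Il13 are outside that rule and were named after their values were seen.

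Alternatives were median-of-ratios and upper-quartile factors, library totals, testing genes of any count or only those averaging 1 CPM, calling under 0.1, DESeq2 1.42.0, limma-voom, limma-trend (limma 3.58.1) on log2(TPM + 1) and log2(TPM + 0.1), a transcript length offset, protein-coding genes only, a replicate block, leaving out each library and, added after seeing the data, reads on protein-coding transcripts only.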

Additional observations from a re-analysis of the deposited data

How the results depend on the processing

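The 7 calls among the 10 arginine genes became 5 to 8 over the 18 alternatives, and 5 genes kept direction and call in all of them. The genes called lower went from 0 to 1 with median-of-ratios factors, library totals, genes averaging 1 CPM or more, a threshold of 0.1, DESeq2, limma-voom, protein-coding genes only and reads on protein-coding transcripts only, and to 2 with upper-quartile factors. Leaving out 1 library gave 0 to 1, with a group's lone library assumed to vary like the other group. Over all genes tested, the calls went from 6916 to 4309 with the transcript length offset and ranged from 3107 to 9708 with 1 library left out, lowest without either vanoxerine library. The 27 genes of the 10 lists called lower became 16 with the length offset, 6 with log2(TPM + 1) and 6 with log2(TPM + 0.1), and 9 to 32 with 1 library left out.

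Signs turned for Slc7a1 (0.0775 and 0.0803 on log2 TPM with pseudocounts of 1 and 0.1), Asl (0.181 with the length offset, 0.394 and 0.401 on log2 TPM) and Sat1 (0.0152 without the low-count filter, 0.0493 on protein-coding transcripts, 0.228 on log2 TPM with either pseudocount, and -0.0285 to 0.037 with 1 library left out). On log2 TPM, limma-trend called Sat1 higher, with an adjusted p of 0.043. Signs also turned for Ate1 (-0.0131 with the length offset) and Prmt7 (0.0387 with the length offset, 0.279 and 0.290 on log2 TPM). In CPM instead of TPM, the log2 ratio of Arg1 to Nos2 was -0.50 in saline and 1.36 in vanoxerine, and that of Slc7a2 to Slc7a1 in vanoxerine was -4.81. As a share of reads instead of TPM, the leading transcript held 90.0% and 91.7% of Ass1 in saline and vanoxerine, 78.8% and 82.0% of Odc1, 54.0% and 58.0% of Sat1, 93.3% and 96.2% of Gatm, and 47.9% of Asl in saline. Except where a scale or a filter was itself the change, the cause was not tested.

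Numbers were not treated as pairs, because nothing states that they pair libraries. Same-numbered libraries also did not deviate together (correlation -0.048 over 9871 genes at 10 CPM or more). With a replicate block, 7 of the arginine genes were called higher and 0 lower, and 6391 genes were called in all, while Cps1 and Gamt were not called (adjusted p of 0.0843 and 0.0502). Depth limits mainly Slc7a2 in saline, at 38 and 17 reads.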
